A study of Caenorhabditis elegans with 12 samples.

Results

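The genes described here are those of clone Y54G2A, the stretch of *Caenorhabditis elegans* chromosome IV that holds *lin-22* (Y54G2A.1) and its upstream neighbour *vrp-1* (Y54G2A.3). A gene was included when an entry of the count table carried the clone's name, and where a gene had several transcript entries the one with the highest mean count stood for it. This gave 47 genes out of the 20188 named in the table, represented by 59 entries, with 10 genes having more than 1 entry. RNA was sequenced from whole L3 larvae collected 31 hr after hatching, in 4 strains with 3 libraries each. The reference strain, JR667, carries wild-type *lin-22* and has the genotype *unc-119(e2498::Tc1)* III; *wIs51[SCMp::GFP + unc-119(+)]* V. Strain MBA81 is *lin-22(icb38)* IV; *wIs51* V, so it shares the seam cell GFP marker of JR667. OH4265 is *lin-22(ot267)* IV; *vtIs1* V, with a stop at codon 62 of *lin-22* and the upstream sequence intact. OH4271 is *lin-22(ot269)* IV; *vtIs1* V, with a C-to-T change in the upstream sequence of *lin-22*. Each mutant strain is named below by its allele. Both *ot* strains carry *vtIs1* where JR667 and *icb38* carry *wIs51*. The effect of the allele and that of the marker therefore cannot be told apart in comparisons of an *ot* strain with JR667 or *icb38*. The *icb38* allele came out of an EMS screen. It deletes sequence upstream of *lin-22*, from 2371 bp before the ATG outwards, together with the end of *vrp-1*, with a piece of the downstream gene *mca-3* inserted in its place. The base changed in *ot269* lies in the sequence that *icb38* lacks. The paper counts *ot267* and *ot269* among *lin-22* alleles that came from genome editing or independent mutagenesis. Other sequence differences between the strains were not examined, and cannot be told apart from the alleles in any comparison here.

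*lin-22* encodes a Hes-related basic helix-loop-helix transcription factor that is active in the epidermis, including the stem cell-like seam cells. Genes of *C. elegans* lie close together, so an upstream regulatory region of one gene can touch the transcribed part of the next, and a change in it could alter 1 gene or a run of neighbours. A clone is a piece of genomic DNA used to sequence the genome, and genes were numbered within it. The comparison asked here is whether levels differed from JR667 at *lin-22* and *vrp-1* alone or also further along the same stretch. In whole larvae, fewer cells of a type and less RNA per cell cannot be told apart.

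In the order of the WBcel235 gene table, 45 of the 47 genes had a place on chromosome IV, 41 of them protein coding and 4 pseudogenes, and 0 counted genes of other clones lay between them. *lin-22* sits near one end: 43 members lie on its upstream side, beginning with *vrp-1*, and *ndnf-1* (Y54G2A.29) is the single member downstream. Y54G2A.9 and Y54G2A.27 are not in that gene table and have no place. Levels ranged from a mean of 3.07 normalised counts to 9965 in JR667 (median 267.7), where a normalised count is a count divided by the size factor of its library. In JR667, 15 members had a mean over 1000 and 7 were under 20. Library totals were between 56479069 and 78920246 counts. The 12 libraries were fitted together and tested by edgeR's quasi-likelihood method, and a difference was called at an adjusted p under 0.1 (Benjamini-Hochberg over 19696 entries). The smallest two-sided p that an exact permutation test of 3 against 3 libraries can give for 1 gene is 0.1. Y54G2A.24, Y54G2A.38 and Y54G2A.42 had too few counts, which left 44 members tested. Replicate 1 of JR667 and replicate 1 of *icb38* stood apart from the other libraries of their strains, with a chi-square per entry between 107.2 and 115.2 against 32.85 and 33.53 between the remaining replicates. Each call is therefore also described with each library left out. As other measures that moved with a strain, the summed level of 8 germline markers was 31090 to 55610 normalised counts in JR667, 23810 to 34290 in *icb38* (5 of 8 lower and 1 higher by the same test), 50230 to 55070 in *ot267* and 40410 to 46520 in *ot269*. The 6 adult-stage markers summed to 203.2 to 981.2 in JR667 and 70.06 to 172.5, 60.24 to 468.5 and 87.91 to 156.2 in the mutants in the same order. Of these 6, 2 were called lower in *icb38*, 0 in *ot267* and 2 in *ot269*. Of 5 neuron markers, 1 was higher in *icb38* and 1 in *ot269*, and of 4 body wall muscle markers 1 was higher in *icb38*. The 5 intestine markers summed to 123600 to 142800 in JR667 and 106400 to 109500 in *ot269* (1 lower), and of 5 hypodermis markers 2 were higher in *ot269*, with sums of 195300 to 211000 against 125100 to 205100. Those hypodermis markers include *rol-6*, a strain marker gene in this series, so their sum does not separate hypodermis from the marker in *ot269*. No marker was at 3 counts or fewer throughout a strain, and the part of germline, intestine, hypodermis, neurons, muscle or stage in the changes below was not tested.

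Of the 44 members tested, 23 were called in at least 1 mutant against JR667 and 21 in none. In *icb38*, 14 members were called, which is 31.8% of them, while 16.2% of all entries tested were called. Of these, 5 were higher and 9 lower (7.66% and 8.55% of all entries). For *ot267* the count was 8, or 18.2% against 8.7% of all entries, with 4 higher and 4 lower (4.1% and 4.59% of all entries). In *ot269* it was 13, or 29.5% against 26.3%, with 5 higher and 8 lower (12.9% and 13.4% of all entries). With 1 entry per gene, as for the members, the shares over all genes were 16.4%, 8.92% and 26.9%. Calls past 2-fold were made for 3, 2 and 7 of the 44 members, against 723, 412 and 1258 of the 19696 entries (3.67%, 2.09% and 6.39%). The libraries of a mutant did not overlap those of JR667 at 14, 13 and 16 members (31.8%, 29.5% and 36.4%), against 28.1%, 23.5% and 39.7% of all entries. With library totals as the only scaling, the splits became 3 higher and 9 lower, 6 and 3, and 9 and 5. Over all entries that scaling gave 1442 higher and 1549 lower, 1366 and 665, and 4060 and 1531. That scaling moved the median of all entries in *ot269* to 0.14 on the log2 scale. The median absolute log2 fold change of the members was 0.38, 0.25 and 0.32 in *icb38*, *ot267* and *ot269*, against 0.23, 0.21 and 0.26 over all entries. The *icb38* count fell to 7 without JR667 replicate 3, 8 without *icb38* replicate 2 and 9 without its replicate 3. For *ot267* it fell to 5 without JR667 replicate 1 and 4 without *ot267* replicate 3. Shares of all entries in these fits are not given here, so such a fall need not be particular to the members. Of the 35 calls in the 3 comparisons, 18 held in every fit that left out 1 library: 5 in *icb38*, 4 in *ot267* and 9 in *ot269*. The mutants share the JR667 libraries, so calls in several mutants are not independent of each other.

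The levels of *lin-22* itself are the first check of the locus. The JR667 libraries held 342, 251 and 267 normalised counts of *lin-22*, those of *icb38* 270, 107 and 198, those of *ot267* 356, 336 and 293, and those of *ot269* 167, 158 and 101. All *ot269* libraries were below all JR667 libraries, while those of *icb38* and *ot267* overlapped JR667. The log2 fold change against JR667 was -1.01 in *ot269* (SE 0.279, edgeR adjusted p = 0.0207), a call that held in all 6 fits with 1 library left out. It was -0.57 in *icb38* (SE 0.275, edgeR adjusted p = 0.207), which passed without *icb38* replicate 1 alone (-0.91, edgeR adjusted p = 0.0652). In *ot267*, whose lesion is in the coding sequence, it was 0.20 (SE 0.271, edgeR adjusted p = 0.722). Set directly against *ot267*, the log2 difference at *lin-22* was -0.77 in *icb38* (SE 0.275, edgeR adjusted p = 0.0834) and -1.21 in *ot269* (SE 0.28, edgeR adjusted p = 0.0164). The first of these passed in 1 of 6 fits with a library left out, the one without *icb38* replicate 1, and the second in 6 of 6. The upstream alleles were not called apart (-0.44 for *ot269* against *icb38*, SE 0.281, edgeR adjusted p = 0.353), except without *icb38* replicate 2 (-0.72, edgeR adjusted p = 0.0823).

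The coding sequence of *lin-22* can be shown by the designed oligonucleotides of the study that lie at its ends. Whether reads were counted over exactly this stretch is not given. The forward cloning primer begins at the start codon, and the first of 24 smFISH probes is the reverse complement of its first 18 bases, with the start codon or its complement in capitals. At the other end the reverse primer and the last probe share 18 bases, in capitals. The pair that amplified CR1, a conserved part of the distal promoter, is shown because it marks non-coding sequence that is missing in *icb38*.
lin22-15F: ATGacgtcattcctgtgctccga
lin-22 first probe: gcacaggaatgacgtCAT
lin22-14R: ctaCACTCTACTTCGATCCTC
lin-22 last probe: CACTCTACTTCGATCCTC
CR1 forward: ccccccgtatgtcccaaaaca
CR1 reverse: aattcgttactactccaaaag

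The first gene upstream, *vrp-1*, had the largest fold change from JR667 of any member with at least 10 normalised counts in every library. Its entry Y54G2A.3a had 206, 323 and 519 normalised counts in JR667, 65.3, 28.6 and 38.9 in *icb38*, 220.5, 452 and 197 in *ot267* and 59.5, 74.3 and 113 in *ot269*. Both upstream mutants lay entirely below JR667 and below *ot267*, and *ot267* overlapped JR667. Against JR667, its log2 value was -2.96 in *icb38* (SE 0.426, edgeR adjusted p = 0.000757) and -2.08 in *ot269* (SE 0.401, edgeR adjusted p = 0.00254), each called in all 6 fits with 1 library left out, and -0.26 in *ot267* (SE 0.374, edgeR adjusted p = 0.733). Reads on the deleted sequence are missing from the *icb38* counts, whereas *ot269* has the whole gene. Against *ot267*, which carries the same marker, the *ot269* difference was -1.82 (SE 0.4, edgeR adjusted p = 0.0123).

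The second *vrp-1* entry, Y54G2A.3b, shares reads with the first. Its log2 fold change was -3.70 in *icb38* (SE 0.492, edgeR adjusted p = 0.000511) and -2.12 in *ot269* (SE 0.436, edgeR adjusted p = 0.00384). The upstream mutants were called apart at this entry, by 1.58 for *ot269* against *icb38* (SE 0.506, edgeR adjusted p = 0.0547), but not at Y54G2A.3a (0.88, SE 0.432, edgeR adjusted p = 0.212). The count of Y54G2A.3b over that of Y54G2A.3a was 0.374 to 0.57 in JR667, 0.175 to 0.458 in *icb38*, 0.435 to 0.501 in *ot267* and 0.403 to 0.554 in *ot269*, so the *icb38* range overlapped that of JR667. The primers below amplified *vrp-1* for an RNAi vector of the study and identify the neighbour whose level moved most.
Y54G2A.3aF1: cacccgccaatcgtgaaatacaagg
Y54G2A.3aR1: gtcatccaaatctctcatgtcca

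**Figure D1:**
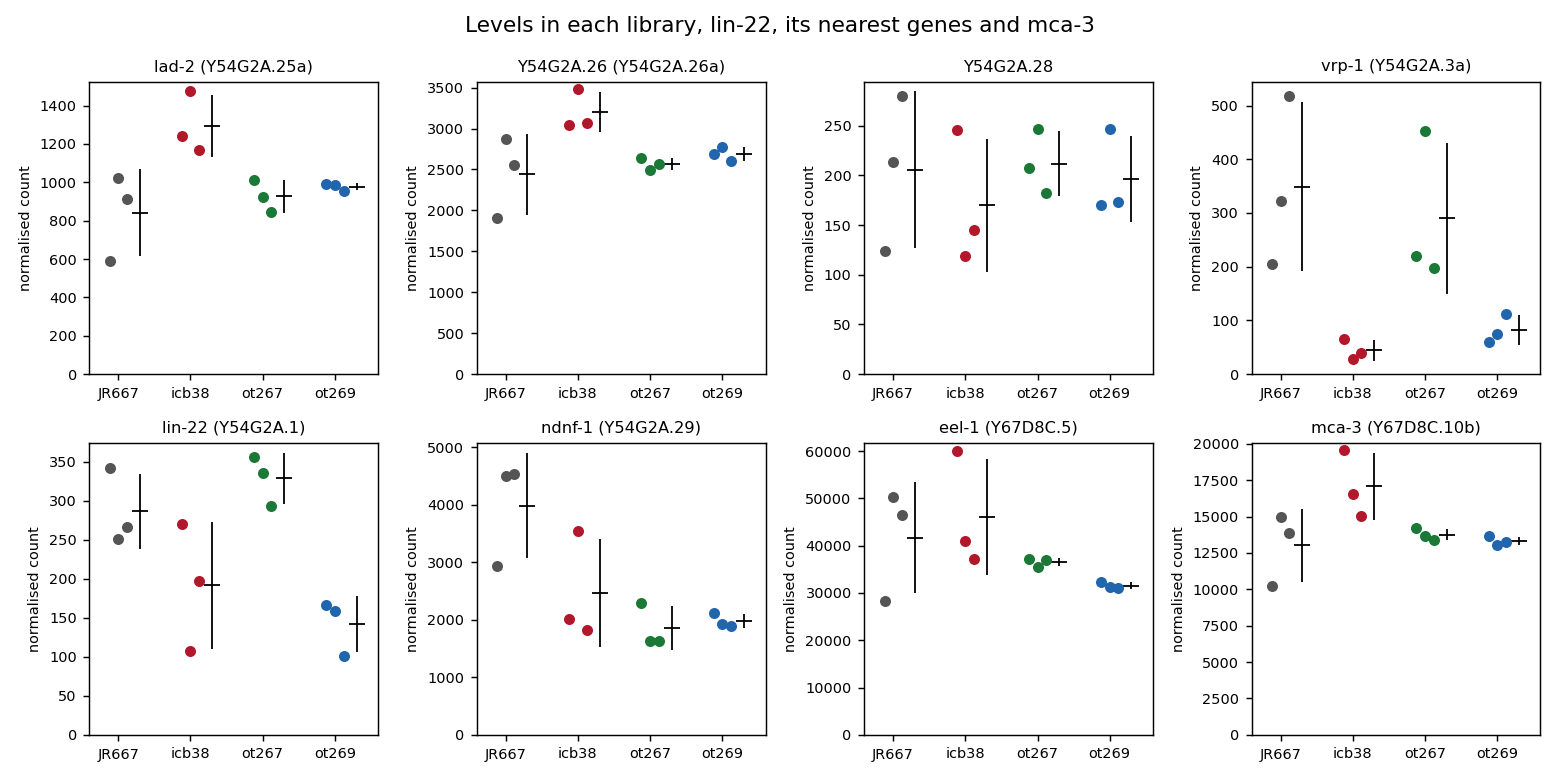
Normalised counts (vertical axis, from 0) of *lin-22*, its nearest upstream genes *vrp-1*, Y54G2A.28, Y54G2A.26 and *lad-2*, its downstream neighbours *ndnf-1* and *eel-1*, and *mca-3*, by strain (horizontal axis; icb38, ot267 and ot269 are the *lin-22* alleles). Points are the 3 libraries in order of replicate and the bar beside them is the mean ± SD; *vrp-1* was 28.6 to 65.3 in *icb38* and 59.5 to 113 in *ot269*, below all 6 libraries of JR667 and *ot267*.

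The next gene beyond *vrp-1* was not called in any mutant. This gene, Y54G2A.28, had 124, 214 and 281 normalised counts in JR667, 246, 119 and 145 in *icb38*, 207, 246 and 182 in *ot267* and 170, 247 and 174 in *ot269*. The 4 strains overlapped, and the log2 fold change was -0.27 (SE 0.305), 0.04 (SE 0.303) and -0.06 (SE 0.303) in *icb38*, *ot267* and *ot269*, with edgeR adjusted p of 0.62, 0.956 and 0.912. These standard errors leave room for changes smaller than those of *vrp-1*. Beyond it, Y54G2A.26 and *lad-2* differed from JR667 in the opposite direction to *vrp-1*, in *icb38*. Y54G2A.26 had 1902, 2872 and 2553 normalised counts in JR667 and 3047, 3485 and 3071 in *icb38*, a log2 fold change of 0.39 (SE 0.126, edgeR adjusted p = 0.0628). It was called in 2 of 6 fits with a library left out; without JR667 replicate 1, the low one, it was 0.24 (edgeR adjusted p = 0.13), and it was also lost without JR667 replicate 3 and without replicate 2 or 3 of *icb38*. *lad-2*, an adhesion molecule of the L1CAM family, had 589, 1024 and 913 in JR667 and 1244, 1477 and 1166 in *icb38*, a log2 fold change of 0.62 (SE 0.166, edgeR adjusted p = 0.0277). This call was lost without *icb38* replicate 2 (0.51, edgeR adjusted p = 0.102) and with only the 6 libraries of both strains fitted (0.63, edgeR adjusted p = 0.111). Against *ot267*, *lad-2* was higher in *icb38* by 0.48 (SE 0.165, edgeR adjusted p = 0.073), a call that held in 2 of 6 such fits. *ser-6*, an octopamine receptor and the fifth gene, had 157 to 267 normalised counts over all 12 libraries and log2 fold changes of -0.05, -0.04 and 0.22, none of them called.

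Downstream, *ndnf-1*, which encodes a secreted protein related to the neuron-derived neurotrophic factor NDNF, was lower in all 3 mutants. JR667 had 2930, 4499 and 4529 normalised counts, *icb38* 2017, 3539 and 1829, *ot267* 2299, 1625 and 1639, and *ot269* 2122, 1927 and 1901. All libraries of both *ot* strains were below those of JR667, and 1 *icb38* library overlapped them. The log2 fold changes were -1.10 in *ot267* (SE 0.228, edgeR adjusted p = 0.0109) and -1.01 in *ot269* (SE 0.227, edgeR adjusted p = 0.00702), both called in all 6 fits with a library left out. In *icb38* it was -0.70 (SE 0.226, edgeR adjusted p = 0.0634), which was lost without JR667 replicate 2 or 3 (-0.60 and -0.59) or *icb38* replicate 1 or 3 (-0.57 and -0.52). The 3 mutants were not called apart, with differences of 0.41, 0.10 and -0.31 between pairs of them and edgeR adjusted p between 0.264 and 0.871.

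Beyond *ndnf-1* the genes belong to the next clone, Y67D8C. *eel-1*, a large HECT-type ubiquitin ligase gene, was not called in any mutant against JR667, with log2 fold changes of 0.14, -0.19 and -0.40 (edgeR adjusted p = 0.691, 0.618 and 0.163). Its JR667 libraries differed widely, at 28400, 50190 and 46520 normalised counts, and without JR667 replicate 1 it was lower in *ot269* by -0.61 (edgeR adjusted p = 0.0159). *ivph-3* was higher in *ot269* by 0.31 (SE 0.123, edgeR adjusted p = 0.0955), a call made in 1 of 6 fits with a library left out, the one without *ot269* replicate 1. Y67D8C.6 and *spig-14*, both under 40 normalised counts in every library, were not called. *mca-3*, a plasma membrane calcium pump gene and the source of the sequence inserted in *icb38*, was 0.39 higher in *icb38* (SE 0.133, edgeR adjusted p = 0.0751). That call was lost without replicate 1 of either strain (0.24 without that of JR667 and 0.28 without that of *icb38*), without JR667 replicate 3 and without *icb38* replicate 2. Reads from the inserted piece cannot be told apart from those of the native gene. Of the 10 tested genes of Y67D8C, 3 were called in *icb38*, 0 in *ot267* by edgeR (0 also at an unadjusted p under 0.05 and by DESeq2) and 3 in *ot269*, where 18.4%, 8.62% and 27.6% of the genes of chromosome IV were called. Y67D8C.9 was higher and *cpg-9* lower in both upstream mutants. *cpg-9*, 6 genes downstream and named after its values were seen, averaged 4324 normalised counts in JR667. Its means were 2806 in *icb38*, 3894 in *ot267* and 2275 in *ot269*. It was also called lower in *ot269* than in *ot267*, as 1 of the 10 genes, against 9.82% of the genes of chromosome IV.

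**Figure D2:**
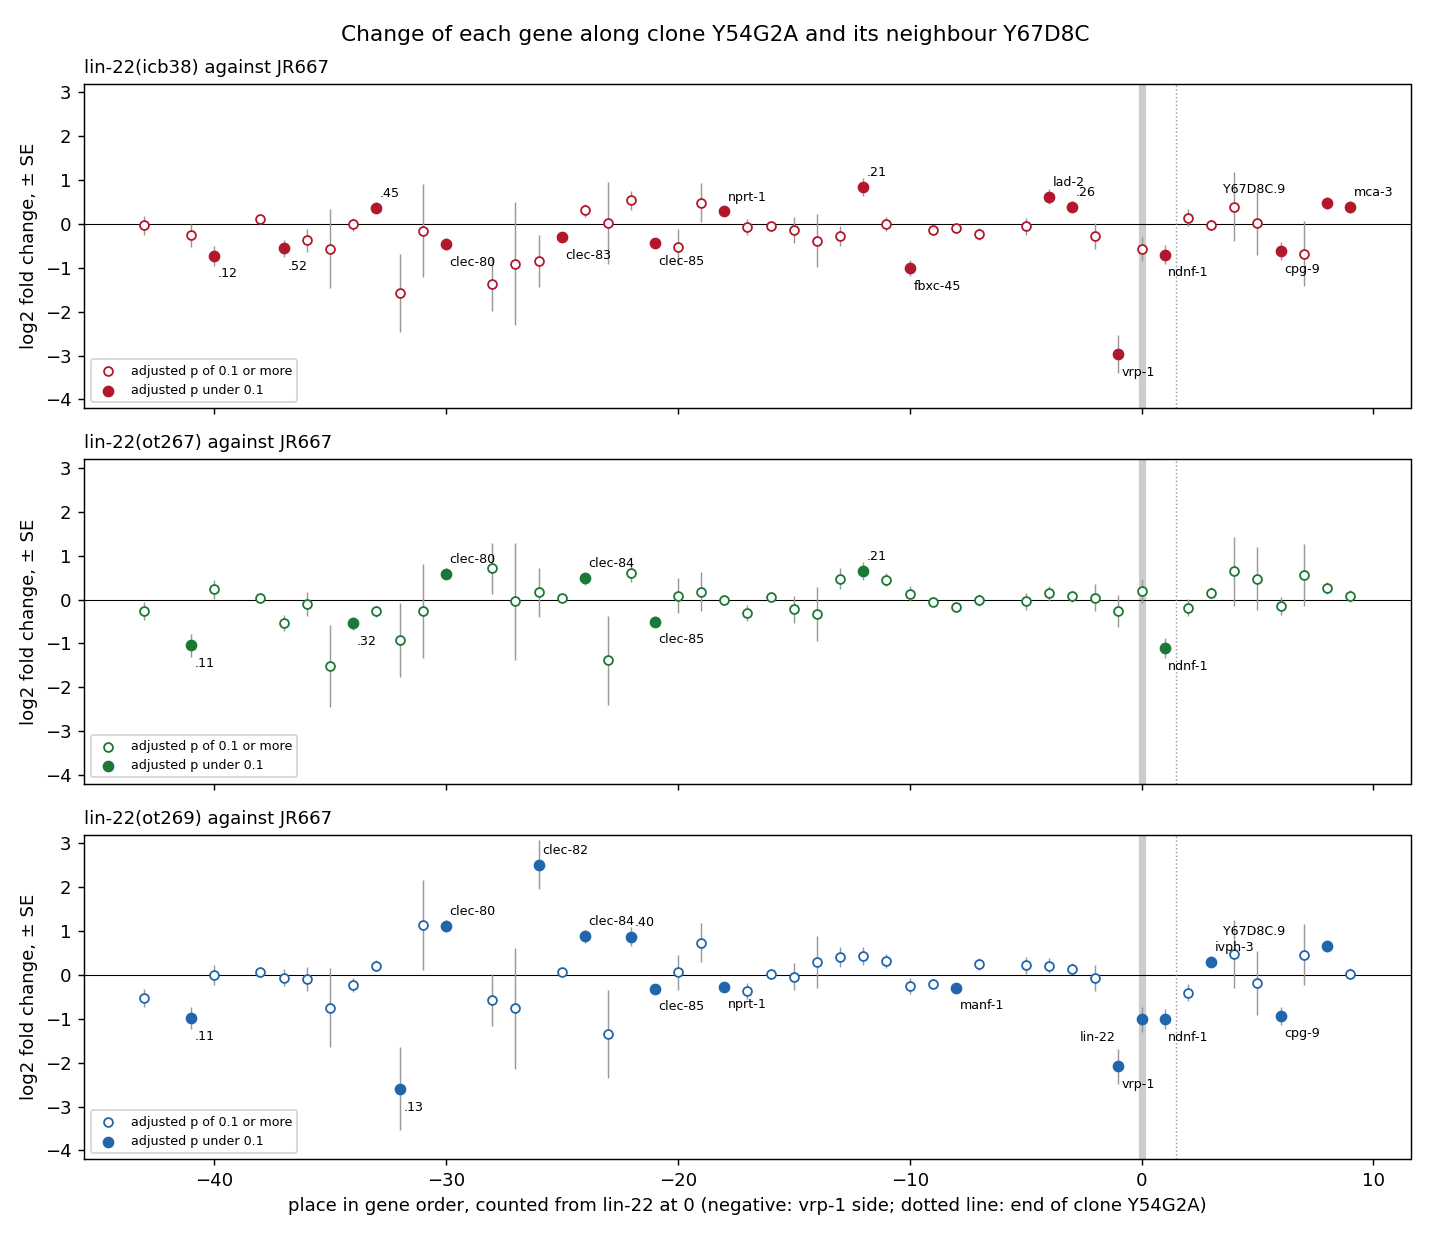
Log2 fold change against JR667 (vertical axis, ± standard error) of each placed and tested gene, by its place in gene order from *lin-22* at 0 (horizontal axis, vrp-1 side negative), with 1 panel per mutant and filled points for an adjusted p under 0.1; labels beginning with a point are Y54G2A numbers. *vrp-1*, beside *lin-22*, is the lowest point in *icb38* (-2.96) and, in *ot269* (-2.08), second to Y54G2A.13 (-2.60), a gene with few counts. The genes called further out lie on both sides of 0, and Y54G2A.48 is left out because it has no counts in *icb38*.

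Going outward on the *vrp-1* side, called genes were interspersed with genes that were not called. Among the 5 nearest upstream genes, 3 were called in *icb38* (*vrp-1* lower, Y54G2A.26 and *lad-2* higher), 0 in *ot267* and 1 in *ot269* (*vrp-1*). At an unadjusted p under 0.05 edgeR gave 3, 0 and 1, as did DESeq2. Of the 4 tested members 6 to 10 genes away, 1, 0 and 1 were called by edgeR, also at an unadjusted p under 0.05 and by DESeq2. Among the 10 members 11 to 20 genes away it was 2, 1 and 1, and 2, 2 and 1 at an unadjusted p under 0.05 and by DESeq2. Of the 21 members more than 20 genes away, 7, 5 and 7 were called, of which 1, 2 and 4 were higher. At an unadjusted p under 0.05 edgeR gave 9, 7 and 8 there, and DESeq2 called 7, 7 and 8 of the 23 genes in that bin. Of the 2586 tested genes of chromosome IV, 718, 523 and 866 had an unadjusted edgeR p under 0.05. No such background is given here for DESeq2. Over chromosome IV, 18.4%, 8.62% and 27.6% of genes were called, so the counts per distance rest on few genes and no share was tested against another. Changes of direction, adjacent pairs and runs are described next without a background, as they were not counted for other genes. Following the placed members in order, the direction changed 6 times between successive called genes in *icb38*, 4 times in *ot267* and 2 times in *ot269*. Of 38 pairs of adjacent tested members, both were called in 2 pairs in *icb38* (*clec-80* with Y54G2A.48, *lad-2* with Y54G2A.26), in 0 in *ot267* and in 3 in *ot269* (Y54G2A.40 with *clec-85*, *vrp-1* with *lin-22*, *lin-22* with *ndnf-1*). The run *vrp-1*, *lin-22* and *ndnf-1* in *ot269*, all lower, was the longest in the 3 mutants. *ndnf-1* was also lower in *ot267* (-1.10), where *vrp-1* and *lin-22* were not called. Between *ot269* and *ot267*, which share a marker, *vrp-1* and *lin-22* were called and *ndnf-1* was not (0.10).

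**Figure D3:**
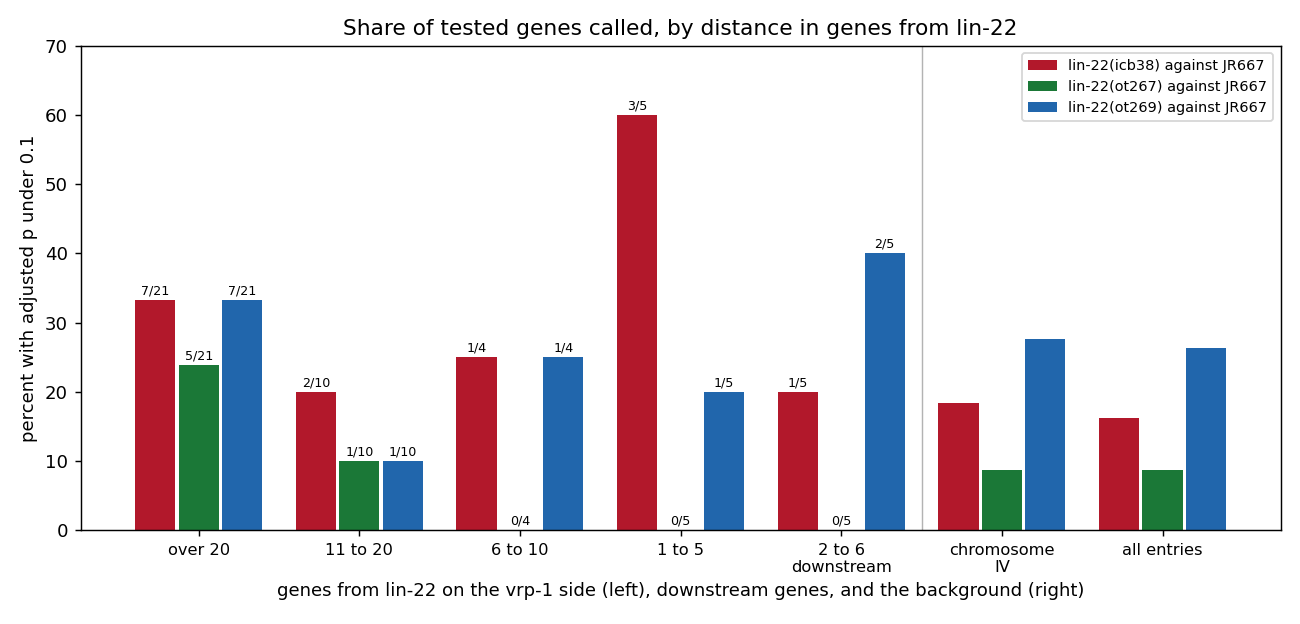
Percent of tested genes with an adjusted p under 0.1 (vertical axis) by distance from *lin-22* in genes (horizontal axis, the 4 bins on the left on the vrp-1 side), with called over tested above each bar and chromosome IV and all entries on the right. The nearest 5 upstream genes had 3, 0 and 1 calls in *icb38*, *ot267* and *ot269*, and the farthest bin 7, 5 and 7 of 21.

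*fbxc-45*, of the F-box family and 10 places upstream, differed in *icb38* and was called in neither *ot* mutant. JR667 had 361, 471 and 592 normalised counts, *icb38* 211, 229 and 267, *ot267* 437, 554 and 575, and *ot269* 375, 441 and 381. Every *icb38* library was below every other library. The log2 fold change was -1.01 against JR667 (SE 0.184, edgeR adjusted p = 0.00323), -1.15 against *ot267* (SE 0.184, edgeR adjusted p = 0.00101), and *ot269* was 0.76 above *icb38* (SE 0.184, edgeR adjusted p = 0.0141). All these calls held with each library left out. The pseudogene Y54G2A.21, 12 places upstream, was higher in *icb38*: 165, 285 and 277 normalised counts in JR667 against 481, 335 and 488. Its log2 fold change was 0.85 (SE 0.205, edgeR adjusted p = 0.0174), held in 6 of 6 such fits, and it was 0.66 in *ot267* (edgeR adjusted p = 0.0801), held in 3 of 6 and 0.45 without JR667 replicate 1. Between these and *lin-22*, *manf-1*, which encodes an endoplasmic reticulum stress protein, *samt-1*, a carrier of S-adenosylmethionine, and *ubc-13*, a ubiquitin-conjugating enzyme, stayed uncalled in every mutant against JR667, except *manf-1* in *ot269* (-0.29, edgeR adjusted p = 0.0816, called in 2 of 6 fits with a library left out and -0.18 without JR667 replicate 1).

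Between 21 and 30 genes upstream lie 5 genes of the *clec* family. These encode proteins with C-type lectin domains, which in *C. elegans* are a large family that includes genes of the response to bacteria. In *icb38* 3 of the 5 were called and all 3 were lower, in *ot267* 3 were called (2 higher, 1 lower), and in *ot269* 4 were called (3 higher, 1 lower), where 16.2%, 8.7% and 26.3% of all entries were called. Their median log2 fold change was -0.44, 0.16 and 0.89 in that order, against 0.01, 0.01 and 0.01 over all entries. Of the 142 other tested *clec* genes, 31.7%, 15.5% and 33.8% were called: 13 were higher and 32 lower in *icb38*, 13 and 9 in *ot267*, and 33 and 15 in *ot269*. Their medians were -0.15, 0.07 and 0.19. *clec* genes are similar in sequence, so reads may be shared between them.

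*clec-80* (Y54G2A.39) was called in every mutant, and not in 1 direction. Its libraries held 697, 630 and 614 normalised counts in JR667, 529, 436 and 446 in *icb38*, 900.5, 1171 and 853 in *ot267*, and 1490, 1376 and 1357 in *ot269*. The 4 strains did not overlap. Against JR667 the log2 fold change was -0.46 in *icb38* (SE 0.134, edgeR adjusted p = 0.0403), 0.59 in *ot267* (SE 0.132, edgeR adjusted p = 0.0167) and 1.12 in *ot269* (SE 0.132, edgeR adjusted p = 5.19e-05). The *icb38* call was lost without its replicate 2 or 3 (-0.41 and -0.42), while the others held throughout. Between the *ot* strains, which share a marker, *ot269* was 0.53 above *ot267* (SE 0.13, edgeR adjusted p = 0.024), a call lost without *ot267* replicate 1 or *ot269* replicate 1.

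*clec-82* (Y54G2A.8a) was higher in *ot269*. The counts were 41.6, 62.3 and 56.1 in JR667, 41.9, 2.38 and 42.8 in *icb38*, 35, 105 and 37.1 in *ot267*, and 423, 246 and 247 in *ot269*, all normalised. All libraries of *ot269* exceeded all others, by a log2 fold change of 2.51 against JR667 (SE 0.558, edgeR adjusted p = 0.00635) and 2.35 against *ot267* (SE 0.554, edgeR adjusted p = 0.0188). The first call held in 6 of 6 fits with a library left out, and the second in 5, failing without *ot269* replicate 1. *clec-84* (Y54G2A.33) had 1303, 1906 and 1875 normalised counts in JR667 and 3321, 3134 and 2934 in *ot269*, a log2 fold change of 0.89 (SE 0.15, edgeR adjusted p = 0.00103) that held in 6 of 6. In *ot267* it was 0.49 (edgeR adjusted p = 0.0766), held in 3 of 6 and 0.33 without JR667 replicate 1.

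The remaining *clec* members moved less. *clec-83* (Y54G2A.14), with a JR667 mean of 4665 normalised counts, was lower in *icb38* at 3536, 3884 and 3905 against 4333, 4769 and 4894. This is a log2 fold change of -0.31 (SE 0.0909, edgeR adjusted p = 0.0443), lost without JR667 replicate 3 or *icb38* replicate 1 (-0.27 and -0.26). *clec-85* (Y54G2A.6) was called lower in all 3 mutants. Its JR667 libraries held 3274, 2453 and 2795 normalised counts, and those of *icb38* 2223, 2044 and 2027, of *ot267* 2133, 2084 and 1798 and of *ot269* 2195, 2204 and 2464. The log2 fold changes were -0.44 (SE 0.115, edgeR adjusted p = 0.0259), -0.50 (SE 0.115, edgeR adjusted p = 0.0199) and -0.31 (SE 0.115, edgeR adjusted p = 0.0722). The first 2 held with each library left out, and the third, where 1 *ot269* library overlapped JR667, in 2 of 6 fits, at -0.20 without JR667 replicate 1. With only the 6 libraries of each comparison fitted, the *ot267* and *ot269* calls were lost (edgeR adjusted p = 0.101 and 0.106), and with library totals as the scaling the *ot269* call was lost (-0.19, edgeR adjusted p = 0.288). With *ndnf-1* and *clec-80*, it was 1 of 3 members called in every mutant (6.82% of those tested, against 2.86% of all entries). In 1 direction throughout it was 2 of them, against 2.61% of all entries.

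**Figure D4:**
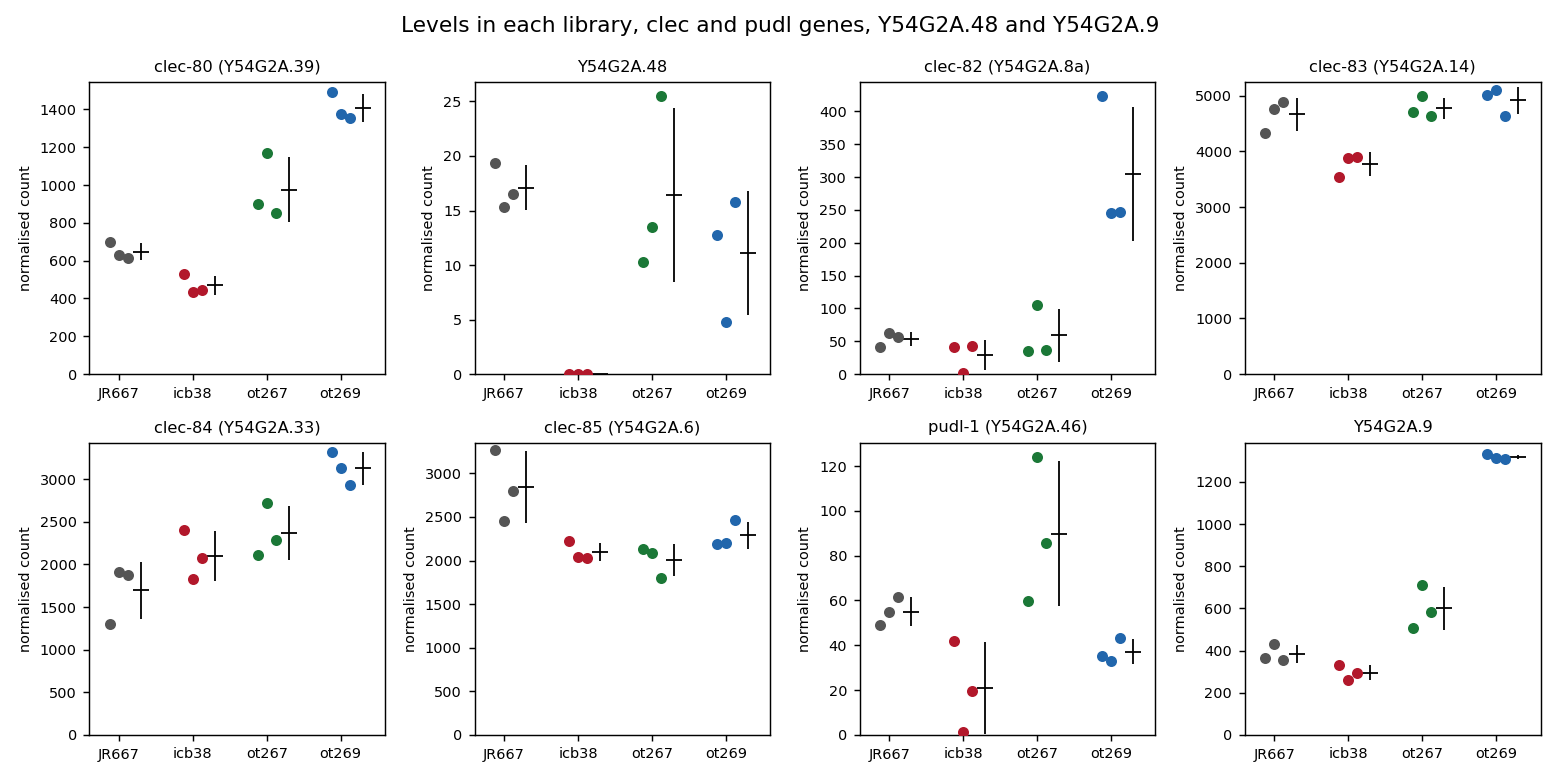
Normalised counts (vertical axis, from 0) of the 5 *clec* members, *pudl-1*, Y54G2A.48 and Y54G2A.9 by strain (horizontal axis); points are the 3 libraries in order of replicate and the bar is the mean ± SD. Y54G2A.9 sat at 1311 to 1331 in *ot269* and 261 to 709 elsewhere, *clec-82* at 246 to 423 in *ot269* and 105 or lower elsewhere, and Y54G2A.48 at 0 in every *icb38* library.

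Y54G2A.9 has no place in the gene table. It had 365, 433 and 353 normalised counts in JR667, 331, 261 and 293 in *icb38*, 509, 709 and 585 in *ot267*, and 1331, 1316 and 1311 in *ot269*. The 4 strains did not overlap. Its log2 fold change was 1.78 in *ot269* (SE 0.143, edgeR adjusted p = 1.53e-06) and 0.65 in *ot267* (SE 0.141, edgeR adjusted p = 0.0148), both held in 6 of 6 fits with a library left out. In *icb38* it was -0.38 (SE 0.144, edgeR adjusted p = 0.112), which passed without *icb38* replicate 1 (-0.47, edgeR adjusted p = 0.0898). Against *ot267* it was 1.13 higher in *ot269* (SE 0.14, edgeR adjusted p = 0.000131) and 1.03 lower in *icb38* (log2 difference -1.03, SE 0.144, edgeR adjusted p = 0.000438).

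Y54G2A.48, next to *clec-80*, was the only tested member with a strain at 0. Raw counts were 21, 16 and 18 in JR667, 10, 15 and 22 in *ot267*, 12, 5 and 16 in *ot269*, and 0 in each *icb38* library. Taking 3 counts over the 3 libraries as the most that a count of 0 allows, it was at least 16.5-fold higher in JR667 than in *icb38*, and at least 15.8-fold and 10.7-fold higher in *ot267* and *ot269*. This floor covers counting error only. The difference from JR667 was called (edgeR adjusted p = 0.00476), also with each library left out. The genes on both sides of it, *clec-80* and *pudl-1*, had counts in every *icb38* library.

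The other small family among the members is *pudl*, with *pudl-1* (Y54G2A.46) and *pudl-2* (Y54G2A.47) next to each other. Neither was called against JR667 with all libraries, by edgeR or DESeq2. *pudl-1* had 48.9, 54.7 and 61.6 normalised counts in JR667, 41.9, 1.19 and 19.5 in *icb38*, 59.8, 124 and 85.7 in *ot267* and 35.1, 32.8 and 43.5 in *ot269*. It was called between *icb38* and *ot267* (log2 difference -2.08, SE 0.621, edgeR adjusted p = 0.042), a call lost without *icb38* replicate 3 or *ot267* replicate 2. Without *icb38* replicate 1, *pudl-1* was lower in *icb38* than in JR667 (-2.35, edgeR adjusted p = 0.0481). *pudl-2* was at 43.2 normalised counts or lower in every library. Its standard errors against JR667 were between 1.33 and 1.4 on the log2 scale, so that only large differences were detectable at this depth.

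Among the other distant members, Y54G2A.11 was lower in both *ot* strains. Its libraries held 2719, 3386 and 3845 normalised counts in JR667, 1849, 4317 and 2146 in *icb38*, 2040, 1423 and 1353 in *ot267* and 1786, 1739 and 1498 in *ot269*. The log2 fold change was -1.05 in *ot267* (SE 0.256, edgeR adjusted p = 0.027) and -0.99 in *ot269* (SE 0.256, edgeR adjusted p = 0.0153). The first was lost without *ot267* replicate 3 (-0.94, edgeR adjusted p = 0.141), and the second held throughout. In *icb38* it was -0.26, but without replicate 2, its high library, -0.73 (edgeR adjusted p = 0.0285). Y54G2A.12 and Y54G2A.52 were lower in *icb38* (-0.72, edgeR adjusted p = 0.0577, and -0.56, edgeR adjusted p = 0.0736), and each was called in 2 of 6 fits with a library left out. Without JR667 replicate 3, for example, Y54G2A.12 was at -0.45. For Y54G2A.32 the *ot267* value was -0.55 (edgeR adjusted p = 0.0545), held in 3 of 6 and -0.40 without JR667 replicate 1.

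Besides *manf-1*, 4 more members were called and are named after their values were seen. Y54G2A.40 was higher in *ot269*, at 258, 205 and 192 normalised counts against 88.7, 151 and 118 in JR667 (log2 fold change 0.88, SE 0.222, edgeR adjusted p = 0.0136), and this held in 6 of 6 fits. Without JR667 replicate 2, its highest in that strain, it was also higher in *icb38* (0.74, edgeR adjusted p = 0.0626) and *ot267* (0.82, edgeR adjusted p = 0.0714). *nprt-1*, the nicotinate phosphoribosyltransferase gene of NAD synthesis, was 0.29 higher in *icb38* and 0.27 lower in *ot269* (log2 fold change -0.27), with edgeR adjusted p of 0.0984 and 0.095, and each call held in 1 of 6. Both calls were lost with TMM and with the replicate block. Its entries Y54G2A.17a and Y54G2A.17c were at 0.15 and 0.27 in *icb38* (edgeR adjusted p = 0.43 and 0.391). In *ot269* these entries were at -0.25 and -0.51 (edgeR adjusted p = 0.14 and 0.0723). The upstream mutants were called apart at *nprt-1*, by -0.55 for *ot269* against *icb38* (SE 0.106, edgeR adjusted p = 0.0034), in 6 of 6 fits. Y54G2A.45 was 0.37 higher in *icb38* (edgeR adjusted p = 0.087, held in 2 of 6). Y54G2A.13, with 37 normalised counts or fewer in each library, was lower in *ot269* (-2.60, SE 0.945, edgeR adjusted p = 0.0697, held in 1 of 6). The 21 members called in no mutant include *atln-1*, an atlastin GTPase gene, with 5060 to 6525 normalised counts over the 12 libraries.

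Compared directly, *icb38* and *ot267*, which also differ in marker, were called apart at 16 members (36.4% of those tested, against 18.1% of all entries). Of these, 5 were higher and 11 lower in *icb38* (7.91% and 10.2% of all entries). Between *ot269* and *ot267*, which share *vtIs1*, 6 members were called, 13.6% against 9.93%, with 4 higher and 2 lower in *ot269* (5.63% and 4.3% of all entries). The 2 lower were *vrp-1* and *lin-22*. The 4 higher were *clec-80*, *clec-82*, Y54G2A.9 and Y54G2A.45, of which Y54G2A.45 (0.48, edgeR adjusted p = 0.0405) was called in 3 of 6 fits with a library left out and 0.38 without *ot267* replicate 3. Between the upstream alleles, whose strains also differ in marker, *ot269* was higher at 10 members and lower at 2 (9.75% and 8.53% of all entries). That is 12 in all, or 27.3% against 18.3%. Neither *lin-22* nor *vrp-1*, by Y54G2A.3a, was among the 12. Over all 4 strains, 24 of the 44 members differed by edgeR's F-test (54.5%, against 34.9% of all entries).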

How the data were processed

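Counts of all 12 libraries were analysed. The authors made stranded mRNA libraries from whole larvae, mapped the reads with Bowtie2, made counts per transcript in bedtools and deposited these as whole numbers, not normalised; versions, genome build, annotation and whether counting used strand are not given in the sources used here. So no coordinates are given, and overlapping or antisense genes may share reads. A second deposited table, DESeq-normalised by the authors, was not used. Gene names and order come from the WBcel235 RefSeq table. Oligonucleotides come from the study's supplementary tables, with cloning tails removed.

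Counts were scaled with RLE size factors (0.84 to 1.11), filtered by filterByExpr with a count minimum of 10 and tested with edgeR 4.0.16 (glmQLFit, glmQLFTest; R 4.3.3, limma 3.58.1), with 1 coefficient per strain. Adjusted p-values were held to 0.1, the false discovery rate the study used. Standard errors, which are approximate, divide the absolute log2 fold change by the square root of F. Totals were 56479069 to 78920246 counts per library. The common biological coefficient of variation was 0.165. Replicates of a strain differed by more than sampling noise (chi-square per entry at least 12.73). Nothing says that replicates were separate cultures, so p-values measure only the spread between these samples. The procedure was tested on simulated data.

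The members and lists were chosen with earlier results of these data known. Named by rule were *lin-22*, both *vrp-1* entries, *mca-3*, the 5 nearest counted genes on each side, the 8 largest calls per mutant with a mean of at least 100 and no overlap, members called in every mutant, *clec* and *pudl* members, and members at 3 counts or fewer in 1 strain and called in another. Alternatives were a threshold of 0.05, TMM, library totals, 2 other count filters, a replicate block, only the 6 libraries compared, 1 entry per gene, a gene's second entry, DESeq2 1.42.0 and each library left out. Leaving out libraries in the direct comparisons of named genes was added after seeing the data. Y54G2A.67, a non-coding RNA overlapping CR1, was not analysed here. Python 3.11.15, numpy 2.4.6, pandas 2.3.3 and matplotlib 3.10.9 were used for tables and plots.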

Additional observations from a re-analysis of the deposited data

Results flagged for a closer look

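The members below were named by the rule and gave a call when 2 mutants were set directly against each other, so their effects against JR667 differed by edgeR's test. Only the *ot269* against *ot267* comparison is between strains with the same marker. *lin-22* differed by -0.77 and *vrp-1* by -2.70 on the log2 scale for *icb38* against *ot267*, and by -1.21 and -1.82 for *ot269* against *ot267*. Differences for *icb38* against *ot267* were also found at *lad-2* (0.48), *fbxc-45* (-1.15), Y54G2A.12 (-0.95), *clec-80* (-1.05), Y54G2A.11 (0.79), Y54G2A.9 (-1.03), Y54G2A.32 (0.54), *clec-83* (-0.34) and *pudl-1* (-2.08). For *ot269* against *ot267* they were 0.53 at *clec-80*, 2.35 at *clec-82* and 1.13 at Y54G2A.9. For *ot269* against *icb38* they were 0.76 at *fbxc-45*, 0.73 at Y54G2A.12, 1.58 at *clec-80*, -0.72 at Y54G2A.11, 2.16 at Y54G2A.9, 0.57 at *clec-84*, 3.36 at *clec-82* and 0.38 at *clec-83*. The fitted values at Y54G2A.48, -7.05 for *icb38* against *ot267* and 6.49 for *ot269* against *icb38*, rest on a strain with 0 counts, depend on the prior count and are no bounds.

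With each of the 6 libraries of a pair left out in turn, the *icb38* against *ot267* difference at *lin-22* was called in 1 fit, that at *lad-2* in 2, those at Y54G2A.11 and Y54G2A.32 in 3 and that at *pudl-1* in 4. For *ot269* against *icb38*, Y54G2A.12 and Y54G2A.11 were called in 2. Without *icb38* replicate 2 the differences at Y54G2A.11 were 0.32 against *ot267* and -0.25 against *ot269*.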

How the results depend on the processing

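No result changed direction while called. At a threshold of 0.05 the members called against JR667 numbered 8 in *icb38* and 5 in *ot267*. With only the 6 libraries of each comparison fitted they numbered 6 and 4. The calls lost in that fit were *lad-2*, Y54G2A.26, *ndnf-1*, Y54G2A.12, Y54G2A.52, *clec-83*, Y54G2A.45 and *nprt-1* in *icb38*, Y54G2A.21, Y54G2A.32, *clec-84* and *clec-85* in *ot267*, and *clec-85* and *manf-1* in *ot269*. With library totals as the scaling, Y54G2A.45 and *nprt-1* in *icb38*, Y54G2A.32 in *ot267* and *clec-85*, *nprt-1* and *manf-1* in *ot269* were lost. Leaving out 1 library gave 7 to 12 calls in *icb38*, 4 to 9 in *ot267* and 9 to 13 in *ot269* against JR667. It gave 9 to 13 for *icb38* against *ot267*, the lowest without *ot267* replicate 3 and 10 without *icb38* replicate 2. It gave 3 to 7 for *ot269* against *ot267*, the lowest without *ot269* replicate 1, and 9 to 11 between the upstream alleles. The other settings stayed within 1.5 times the reported counts, and the cause of the losses was not tested. Shares of all entries are not set beside the counts of this section. A change in such a count therefore need not be particular to the members. For single genes against JR667, 1239 values kept their side of the threshold, 106 lost the call and 12 gained it. Members with few counts, such as *pudl-2* and Y54G2A.13, had standard errors up to 1.44, so smaller differences there were not detectable at this depth.

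Replicate numbers did not pair the samples: correlations of same-numbered libraries were between -0.14 and 0.06 over 18 pairs. With the replicate number as a block, 11, 6 and 10 members were called in *icb38*, *ot267* and *ot269* against JR667. The shares of all entries in that fit are likewise not given here.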
